A study of Mus musculus with 6 samples.

Results

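The genes that carry and control calcium in the kidney were described in pups raised on maternal iron deficiency. A set of 10 genes was chosen by symbol, by a rule that names no measured values but with earlier results of these data known. It held the entry channels Trpv5 and Trpv6, the intracellular calcium buffers Calb1 and S100g, the sodium-calcium exchanger Slc8a1, the plasma membrane calcium pumps Atp2b1 and Atp2b4, and the receptors Casr, Pth1r and Vdr. All 10 were among the 24422 gene symbols counted, and all 10 passed the filter on low counts with at least 68 raw reads in every kidney. RNA was sequenced from whole kidneys of 6 wild type C57BL/6 pups labelled as postnatal day 15. Their dams, 8 weeks old at the start, ate either a synthetic diet with 2 to 6 ppm iron (FeD, 3 kidneys) or a diet with 220 ppm iron (control, 3 kidneys) from before mating until the kidneys were taken. The labels give about a month on the diets before mating, and the study's methods a shorter time. The diet reached the pups through the dam, during gestation and nursing, and neither the litter nor the sex of a pup is given. P values therefore measured the spread between these kidneys, and a difference between litters cannot be told apart from the diet.

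Calcium is reclaimed from urine by 2 routes. In the proximal tubule and thick ascending limb it passes mostly between cells, through claudins. In the late distal convoluted tubule and connecting tubule it crosses the cells: it enters at the luminal side through Trpv5 and Trpv6, is ferried and buffered by calbindin-D28k (Calb1) and calbindin-D9k (S100g), and leaves at the blood side through the exchanger NCX1 (Slc8a1) and the pumps PMCA1 (Atp2b1) and PMCA4 (Atp2b4). Parathyroid hormone and active vitamin D raise this transcellular route through the receptors Pth1r and Vdr, and the calcium-sensing receptor Casr lets cells of the thick ascending limb and elsewhere respond to calcium outside them.

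In FeD kidneys the 10 genes moved in both directions. Both entry channels were higher, the buffer Calb1 was lower and the buffer S100g did not pass the test, the exchanger was lower, the 2 pumps moved in opposite directions, and of the receptors Casr was higher while Pth1r and Vdr were lower. At an adjusted P under 0.05 by edgeR's quasi-likelihood test, 5 of 10 genes were lower in FeD and 4 of 10 were higher. Among all 15145 tested genes, 23.3% were called lower and 22.4% higher. With a fold change of at least 2 required as well, 1 of the 10 was lower (Pth1r, against 5.69% of tested genes) and 0 were higher (against 4.34%). The 3 FeD values and the 3 control values did not overlap for 9 of the 10 genes, as for 58.1% of tested genes. These counts changed when a kidney was left out: 3 genes were lower without control 2, control 3 or FeD 1, and 2 were higher without control 1, 2 or 3. The shares over all tested genes fell in these settings too, to 17.0% to 19.9% lower in the former and 15.6% to 16.7% higher in the latter. The median log2 fold change was -0.05 over the 10 genes and 0.00 over all tested genes, and the median absolute log2 fold change was 0.57 over the 10 genes and 0.32 over all. In RNA from whole kidney, fewer cells of a type and less RNA per cell cannot be told apart, and this holds for every gene described.

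**Figure D1:**
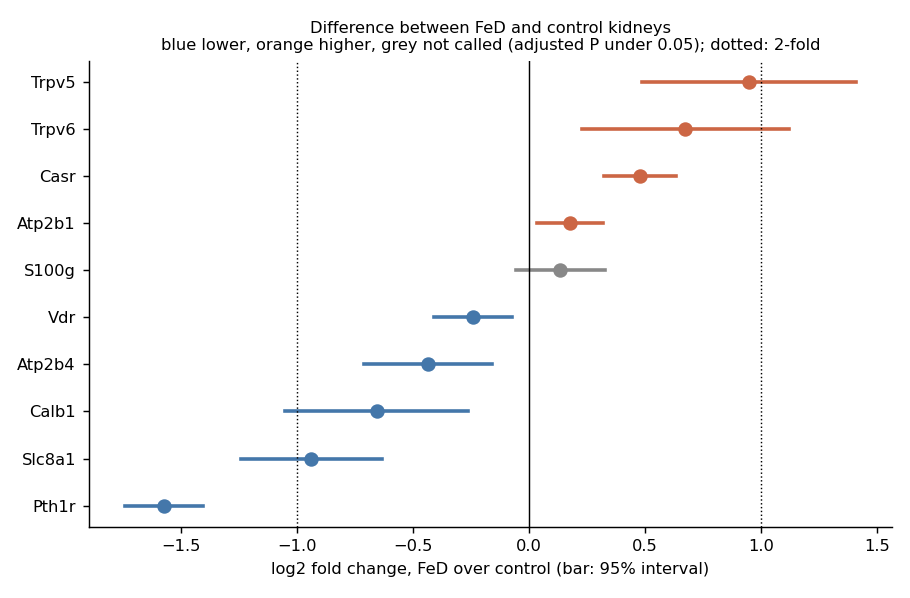
Log2 fold change of each of the 10 calcium genes, FeD over control, with the 95% interval from the edgeR fit (horizontal axis), genes ordered by the change. Pth1r lies lowest at -1.57, Slc8a1 follows at -0.94, Trpv5 lies highest at 0.95, and the interval of S100g crosses 0.

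Trpv5 and Trpv6 are neighbours. On chromosome 6 of the mm9 (NCBIM37) assembly, Trpv5 occupies chr6:41602172-41630768 and Trpv6 chr6:41570620-41586404, both on the minus strand with 15767 bases between them. Because both channels were higher in FeD, and because S100g is a classical target of vitamin D, the 250 bases before the start of these 3 genes are shown. They were taken from RefSeq annotation of GRCm38.p6, a later assembly than mm9, and are written 5′ to 3′ on the minus strand. Capitals mark the hexamer AGGTCA (or its reverse complement TGACCT), a letter pattern that many nuclear receptors recognise, and, for Trpv5, the TATA box TATAAA.
Trpv5 (GRCm38.p6 chr6:41680724-41680973): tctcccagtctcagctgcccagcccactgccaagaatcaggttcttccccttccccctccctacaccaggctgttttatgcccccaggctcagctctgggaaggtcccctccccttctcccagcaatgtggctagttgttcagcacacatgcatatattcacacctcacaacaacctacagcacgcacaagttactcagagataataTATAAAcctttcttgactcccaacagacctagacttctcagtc
Trpv6 (GRCm38.p6 chr6:41636406-41636655): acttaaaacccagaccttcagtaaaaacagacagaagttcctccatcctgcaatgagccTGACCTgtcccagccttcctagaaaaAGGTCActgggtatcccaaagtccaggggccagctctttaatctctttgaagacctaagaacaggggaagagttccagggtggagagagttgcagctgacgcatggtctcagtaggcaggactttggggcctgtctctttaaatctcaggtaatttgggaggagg
S100g (GRCm38.p6 chrX:162964600-162964849): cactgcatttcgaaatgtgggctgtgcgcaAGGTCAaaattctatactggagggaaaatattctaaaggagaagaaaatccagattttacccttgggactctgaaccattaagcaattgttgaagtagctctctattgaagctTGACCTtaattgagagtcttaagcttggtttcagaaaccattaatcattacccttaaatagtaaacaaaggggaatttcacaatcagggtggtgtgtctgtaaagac
The window of Trpv6 held AGGTCA 191 and 165 bases before the start, and that of S100g 220 and 107 bases before it. Trpv5 had none, but held TATAAA 43 bases before its start. RefSeq entries were matched for 9 of the 10 genes, with 12 windows in all (Calb1 was not matched). AGGTCA, on either strand, was in 2 of these 12 windows and in 14.0% of 32851 windows of the same length over all genes, and TATAAA, on the printed strand, was in 1 of 12 and in 7.59%. A related hexamer, AGTTCA, was in 1 of 12 (Vdr, 91 bases before the start) and in 11.8% of all windows. The direct repeat GNTCANNNNGNTCA, a loose spelling of the element to which the vitamin D receptor binds together with a retinoid X receptor, was in 0 of the 12 windows and in 0.548% of all. These counts describe letters in the windows only.

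The 6 libraries held 13732173 to 20853293 counts each. A floor of 3 counts, which covers counting error only, stood at 2.59 to 3.90 normalized counts (counts scaled to the mean TMM-adjusted library size). Markers of proximal tubule, thick ascending limb, distal tubule, collecting duct and podocytes were counted in every library, as a kidney should show. By Xist and Y-linked counts, controls 1 and 2 and FeD 3 carried Xist, whereas control 3, FeD 1 and FeD 2 carried Y-linked transcripts, so the sexes that these transcripts mark were unevenly spread over the groups. FeD 2 held adrenal transcripts besides: 5 adrenal markers summed to 10491 normalized counts there and to 135 to 293 in the others. Without FeD 2, 4 of the 10 calcium genes were lower and 3 higher (20.8% and 21.9% of all tested genes). Markers of the thyroid and parathyroid, tissues that also express Casr, summed to 9.09 to 40.9 normalized counts, and Pth and Gcm2 were at 0 in all 6 libraries.

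**Figure D2:**
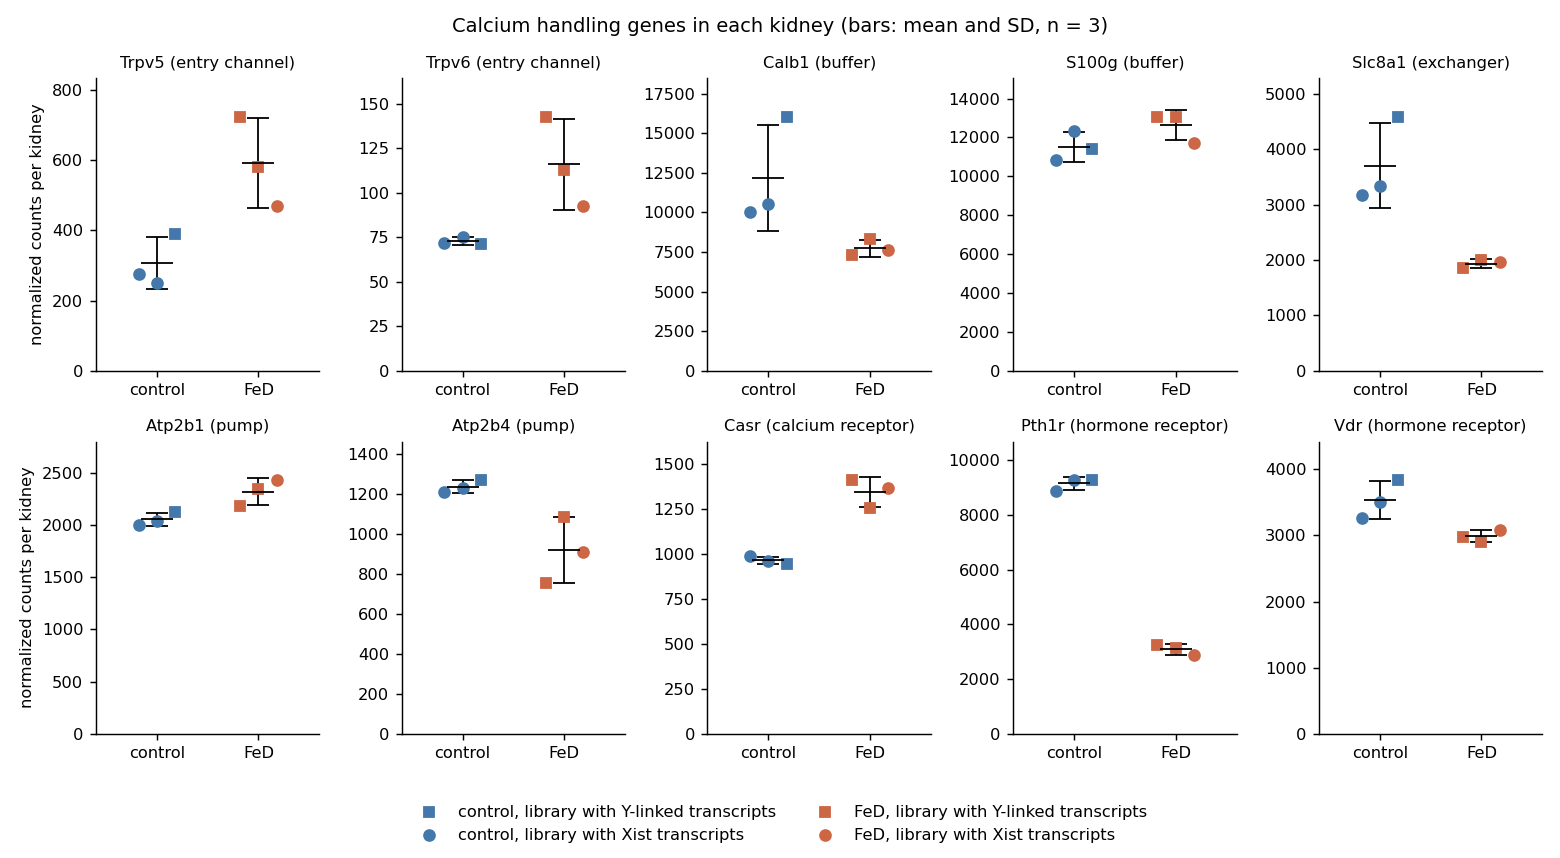
Normalized counts of the 10 calcium genes in each kidney (vertical axes, each from 0), with the mean and SD of 3 kidneys; squares are libraries with Y-linked transcripts and circles libraries with Xist. The groups are separate for every gene but S100g. Control 3 is the highest control for Calb1, Slc8a1, Trpv5, Vdr, Atp2b1 and Atp2b4.

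Entry channels. Trpv5, the channel through which calcium enters distal tubule cells, had 276, 251 and 391 normalized counts in controls 1 to 3, and 725, 580 and 470 in FeD 1 to 3. Every FeD kidney lay above every control. The FeD mean was 592 ± 128 (SD, n = 3) against 306 ± 74.4 in controls, 1.93-fold higher, with a log2 fold change of 0.95 (SE 0.20, 95% interval 0.48 to 1.41, edgeR adjusted P = 0.0059). Of all tested genes, 12.1% had a larger absolute log2 fold change. The call held in each setting tried, and the change passed 2-fold when control 3 (log2 1.16) or FeD 3 (log2 1.10) was left out.

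Trpv6, its close relative and the main calcium channel of the intestine, was the least abundant of the 10 genes. Its normalized counts were 71.9, 75.2 and 71.2 in controls and 143, 113 and 92.4 in FeD, so the controls were tightly grouped and the FeD kidneys spread over a wider range above them. The means were 72.8 ± 2.16 and 116 ± 25.4 (SD, n = 3 each), a 1.59-fold rise with a log2 fold change of 0.67 (SE 0.19, edgeR adjusted P = 0.0222). These values rest on 68 to 143 raw reads per kidney, and the call was lost without control 1, 2 or 3 (adjusted P = 0.0704, 0.0642 and 0.0750) or FeD 1 (0.0603), and with the Xist or Y-linked class as a term in the edgeR fit (log2 0.59, adjusted P = 0.0557).

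The balance between the 2 channels was compared within each kidney, where library scaling cancels. The ratio of Trpv6 to Trpv5 reads was 0.260, 0.300 and 0.182 in controls, and 0.197, 0.195 and 0.197 in FeD. The FeD kidneys were nearly equal to each other and fell inside the range of the controls. The mean log2 ratio was lower by 0.30 in FeD, a difference that did not pass the exact two-sided permutation test (P = 0.40, where 3 against 3 allows no P below 0.10).

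Intracellular buffers. Calb1, the buffer of the distal convoluted and connecting tubules, had 10024, 10506 and 16062 normalized counts in controls and 7278, 8303 and 7625 in FeD. All FeD kidneys were below all controls, and control 3 stood well above the other controls. The means were 12197 ± 3356 and 7735 ± 522 (SD, n = 3), so FeD reached 63.4% of control, with a log2 fold change of -0.66 (SE 0.17, 95% interval -1.05 to -0.26, edgeR adjusted P = 0.0147). Leaving out control 3 reduced the log2 fold change to -0.41 (adjusted P = 0.0162), and leaving out FeD 1 lost the call (adjusted P = 0.0550).

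S100g, the smaller buffer, was by far the most abundant of the 10 genes per length of transcript. It showed 10821, 12337 and 11378 normalized counts in controls and 13074, 13072 and 11728 in FeD, and the ranges overlapped. The means were 11512 ± 767 and 12625 ± 776 (SD, n = 3). The log2 fold change of 0.13 did not pass the test (SE 0.08, edgeR adjusted P = 0.225), and its 95% interval ran from -0.06 to 0.32. Without FeD 3 the value was 0.20 and passed (adjusted P = 0.0465).

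The ratio of S100g to Calb1 reads was 1.079, 1.174 and 0.708 in controls and 1.796, 1.574 and 1.538 in FeD. Every FeD kidney held more S100g per Calb1 than any control. The mean log2 ratio was higher by 0.76 in FeD, 1.69-fold, at the smallest P that the exact permutation test of 3 against 3 can give (P = 0.10, adjusted P = 0.133 over 4 ratios).

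**Figure D3:**
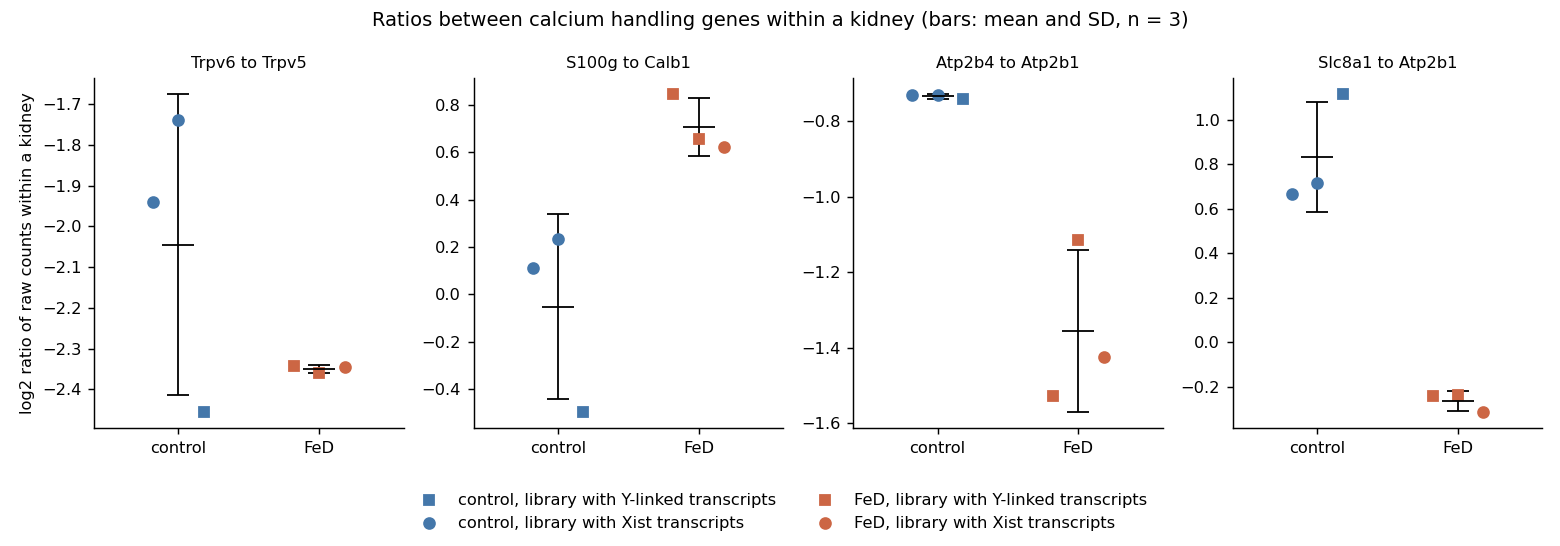
Log2 ratio of raw counts between pairs of calcium genes within each kidney (vertical axes, each with its own range), with the mean and SD of 3 kidneys. The groups overlap for Trpv6 to Trpv5 and are separate for S100g to Calb1 (higher in FeD) and for Atp2b4 to Atp2b1 and Slc8a1 to Atp2b1 (lower in FeD).

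Exit to the blood. Slc8a1, the exchanger that trades calcium for sodium at the basolateral membrane, had 3181, 3342 and 4592 normalized counts in controls and 1846, 1996 and 1961 in FeD. The FeD kidneys were close together and all below the lowest control. The means were 3705 ± 773 and 1934 ± 78.5 (SD, n = 3), so FeD was at 52.2% of control, with a log2 fold change of -0.94 (SE 0.13, 95% interval -1.24 to -0.64, edgeR adjusted P = 0.00089). The call held in every setting tried, from -1.04 without control 1 to -0.76 without control 3, and passed 2-fold without control 1 or control 2 (-1.01).

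Atp2b1, the widely expressed calcium pump PMCA1, had 2005, 2039 and 2123 normalized counts in controls and 2179, 2350 and 2436 in FeD. The groups were separate by a narrow gap. FeD was 1.13-fold higher (log2 0.18, SE 0.06), just inside the threshold (edgeR adjusted P = 0.0472), and 70.0% of tested genes had a larger absolute log2 fold change. The call was lost without control 1 (adjusted P = 0.16), control 2 (0.15), control 3 (0.0844) or FeD 2 (0.0682), by DESeq2 (0.0577), with no low-count filter (0.0844), without globin, mitochondrial and sex-linked genes (0.0534), and with the Xist or Y-linked class as a term (0.0681).

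Atp2b4, the pump PMCA4, moved the other way. Its normalized counts were 1208, 1229 and 1270 in controls and 756, 1085 and 907 in FeD, with all FeD kidneys lower and more widely spread. FeD stood at 74.0% of control (log2 -0.43, SE 0.12, edgeR adjusted P = 0.0186). Without control 2 or control 3 the adjusted P was 0.0599 and 0.0678.

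Within kidneys, Atp2b4 to Atp2b1 was 0.602, 0.603 and 0.599 in controls, nearly the same in each, and 0.347, 0.462 and 0.372 in FeD. The FeD ratio was 65.0% of control (log2 difference -0.62). Slc8a1 to Atp2b1 was 1.59, 1.64 and 2.16 in controls and 0.847, 0.849 and 0.805 in FeD, so that reads of the exchanger outnumbered those of the pump in every control and in no FeD kidney. That ratio fell to 46.9% of control (log2 difference -1.09). Both differences were at the smallest exact permutation P, 0.10 (adjusted P = 0.133 over 4 ratios).

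Receptors. Pth1r, the receptor for parathyroid hormone on proximal and distal tubule cells, changed most among the 10 genes. It had 8894, 9296 and 9294 normalized counts in controls and 3250, 3134 and 2863 in FeD, with little spread in either group and a wide gap between them. The means were 9161 ± 232 and 3083 ± 199 (SD, n = 3), so FeD was at 33.6% of control, with a log2 fold change of -1.57 (SE 0.07, 95% interval -1.74 to -1.40, edgeR adjusted P = 8.86e-06). Only 4.62% of tested genes had a larger absolute log2 fold change, and the call held in every setting tried (-1.60 to -1.51).

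Vdr, the nuclear receptor for active vitamin D, had 3266, 3499 and 3845 normalized counts in controls and 2984, 2899 and 3088 in FeD. The groups were separate, and FeD was at 84.6% of control (log2 -0.24, SE 0.07, edgeR adjusted P = 0.0271). The call was lost without control 2 (adjusted P = 0.0763), control 3 (0.103), FeD 1 (0.0732) or FeD 2 (0.0858).

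Casr, the calcium-sensing receptor, had 986, 961 and 946 normalized counts in controls and 1413, 1253 and 1364 in FeD. Every FeD kidney was above the controls, which lay within a narrow range. FeD was 1.39-fold higher, with a log2 fold change of 0.48 (SE 0.07, 95% interval 0.32 to 0.63, edgeR adjusted P = 0.00093), and the call held in every setting tried (0.46 to 0.55).

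Levels can be compared between genes only per length. RPKM values, which are reads scaled for exon length and library size, were computed here with exon lengths of the mm9 GENCODE annotation, which may not be the annotation used for counting. In controls the order was S100g (1343 ± 89.5 RPKM), Pth1r (188 ± 4.76), Calb1 (141 ± 38.8), Slc8a1 (67.6 ± 14.1), Vdr (35.05 ± 2.89), Atp2b1 (16.1 ± 0.474), Casr (11.4 ± 0.243), Atp2b4 (7.67 ± 0.198), Trpv5 (5.28 ± 1.28) and Trpv6 (1.39 ± 0.041). Of the neighbours in this order, Pth1r and Calb1 were the only ones whose control ranges overlapped. The channels stood at the bottom and the buffers at or near the top.

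In FeD the order changed in 2 places. Calb1 (89.4 ± 6.03 RPKM) came before Pth1r (63.3 ± 4.08), and Trpv5 (10.2 ± 2.21) came before Atp2b4 (5.68 ± 1.02). S100g (1473 ± 90.6) remained at the top and Trpv6 (2.21 ± 0.485) at the bottom. No neighbours had overlapping ranges in FeD.

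**Figure D4:**
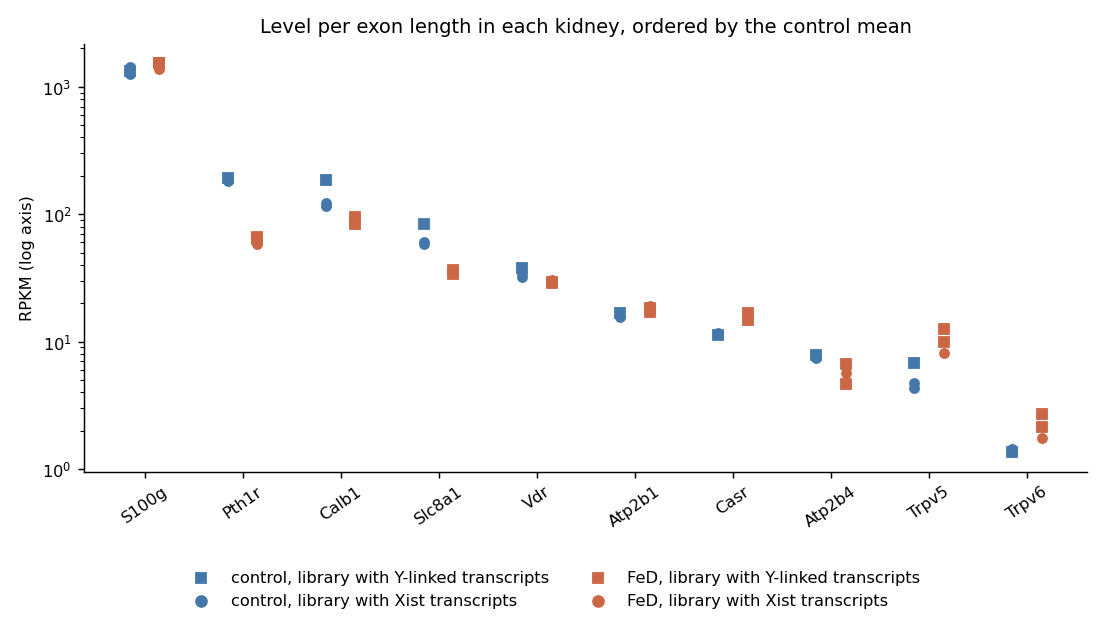
RPKM of the 10 genes in each kidney on a log axis, ordered by the control mean, with squares for libraries with Y-linked transcripts and circles for libraries with Xist. The levels run from 1.39 (Trpv6) to 1343 (S100g) RPKM in controls, and the groups are farthest apart for Pth1r.

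None of the 10 genes shared more than a trace of exon with another gene. Slc8a1 overlapped an opposite-strand gene, Gm11096, by 8 bases (0.261% of its exons), and 0% of 100-base windows in the transcripts of the 10 genes recurred in another coding gene. Of the genes lower in FeD, those that differed most were Pth1r, at chr9:110624592-110649649, and Slc8a1, at chr17:81785359-82048947, both on the minus strand (mm9).

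Because the libraries with Y-linked transcripts and those with Xist were unevenly divided, FeD and control were also compared within each class, which leaves 1 or 2 kidneys a side and no test. All 10 genes kept their direction in both classes. For the 9 genes whose groups did not overlap, that outcome was fixed in advance, so only S100g could have turned. Calb1 differed by -1.04 (log2) among libraries with Y-linked transcripts and by -0.43 among those with Xist, Slc8a1 by -1.26 and -0.73, and Trpv6 by 0.85 and 0.33. The values also stood apart for Vdr (-0.39 and -0.13), Atp2b1 (0.09 and 0.27) and S100g (0.20 and 0.02). Trpv5 (0.74 and 0.83), Casr (0.50 and 0.49), Atp2b4 (-0.47 and -0.43) and Pth1r (-1.54 and -1.67) were close in both classes. With the class as a term in the edgeR fit, a setting chosen after the data were seen, 5 of the 10 genes stayed lower and 2 higher (22.6% and 21.5% of all tested genes). Calb1 was at -0.74 (edgeR adjusted P = 0.00401), Slc8a1 at -0.997 (0.000552) and Trpv5 at 0.79 (0.00150). Trpv6 (0.0557) and Atp2b1 (0.0681) lost their calls.

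The transcellular route runs in the distal convoluted tubule and connecting tubule, so the markers of these segments were set beside the genes. Of 11 distal convoluted tubule markers, 5 were lower, 0 were higher and 6 did not pass the test, with a median log2 fold change of -0.59 (0.00 over all tested genes). Over all tested genes 23.3% were lower and 22.4% higher, and these shares stand beside the counts of this list and of each list below. Parvalbumin (Pvalb) fell from between 327 and 402 to between 3.45 and 22.1 normalized counts (log2 -5.08, edgeR adjusted P = 5.92e-05). The thiazide-sensitive cotransporter Slc12a3 (-1.56), Egf (-1.62) and the magnesium gene Cnnm2 (-1.09) were lower as well, whereas the potassium channel gene Kcnj10 differed by -0.02 and did not pass. The summed level of the 11 markers was 115312 to 128913 in controls and 56948 to 73142 in FeD.

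Connecting tubule and principal cell markers were mixed: of 9, 4 were higher, 3 lower and 2 not called, with a median of 0.14. Aquaporin-2 (Aqp2, 1.13), Aqp3 (1.10) and the sodium channel subunit Scnn1g (0.75) were higher, and kallikrein (Klk1, -1.43) and the vasopressin receptor Avpr2 (-0.67) were lower. Their summed level overlapped, at 69125 to 80249 in controls and 53792 to 87610 in FeD. The lowest of these sums was in FeD 2, the library with adrenal transcripts.

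Read against the distal convoluted tubule sum within each kidney, Trpv5 was 3.64-fold, Trpv6 2.95-fold and S100g 2.06-fold higher in FeD, without overlap of the groups. Slc8a1 was at 99.2% of control by that measure (log2 difference -0.01, exact permutation P = 0.90), and Calb1 was 1.22-fold higher with overlapping groups (exact P = 0.30). The Slc8a1 difference turned to 0.11 without control 3, 0.02 without FeD 1 and 0.07 without FeD 3. In controls the largest genes of the distal convoluted tubule sum were Egf (mean 41060 normalized counts) and Fxyd2 (29535). Both were lower in FeD, with means of 13340 and 16704, so the ratios to that sum leaned on them. Read against the connecting tubule and principal cell sum, Trpv5 was 2.03-fold and Trpv6 1.65-fold higher and Slc8a1 at 55.4% of control, each without overlap. Calb1 (log2 difference -0.56, exact permutation P = 0.30) and S100g (0.20, exact P = 0.60) overlapped, and S100g stood at -0.016 without FeD 2. The ratios without overlap had the smallest exact permutation P, 0.10 (adjusted P = 0.167 over 10 ratios). Both channels were higher in FeD with either summed denominator, whereas the value for Slc8a1 depended on which sum was taken. Klk1 was the largest gene of the connecting tubule and principal cell sum in controls (mean 34005 normalized counts, and 12603 in FeD). Its members Aqp2 (log2 1.13) and Aqp3 (1.10) rose more than Trpv5 (0.95) or Trpv6 (0.67). A sum therefore leans on its most abundant genes, and how closely either follows its segment was not tested. What share of any difference comes from the number of cells of a segment was not tested.

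Pth1r is abundant in the proximal tubule, whose markers were lower too. Of 10 such markers 9 were lower and 0 higher, with a median of -1.18, and their sum was 155642 to 167140 in controls and 65405 to 72270 in FeD. The glucose transporter Slc5a2 was at 3.38% of control (log2 -4.89, edgeR adjusted P = 3.34e-06). The phosphate transporter Slc34a1, which parathyroid hormone withdraws from the luminal membrane, was at 21.4% of control (log2 -2.22, edgeR adjusted P = 1.65e-05), the endocytic receptor Lrp2 at 71.7%, and the lactate transporter Slc5a12 did not pass (0.18, adjusted P = 0.327). The part of these markers in the Pth1r difference was not tested.

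Casr is known in the thick ascending limb. Of 9 markers of that segment, 1 was higher, 4 lower and 4 not called (median -0.38), and their summed level overlapped between control (129762 to 138540) and FeD (101804 to 155662). Barttin (Bsnd, -1.01) and claudin-19 (Cldn19, -0.90) were lower. The chief transporter of the segment, Slc12a1, differed by 0.13 and did not pass (edgeR adjusted P = 0.585).

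**Figure D5:**
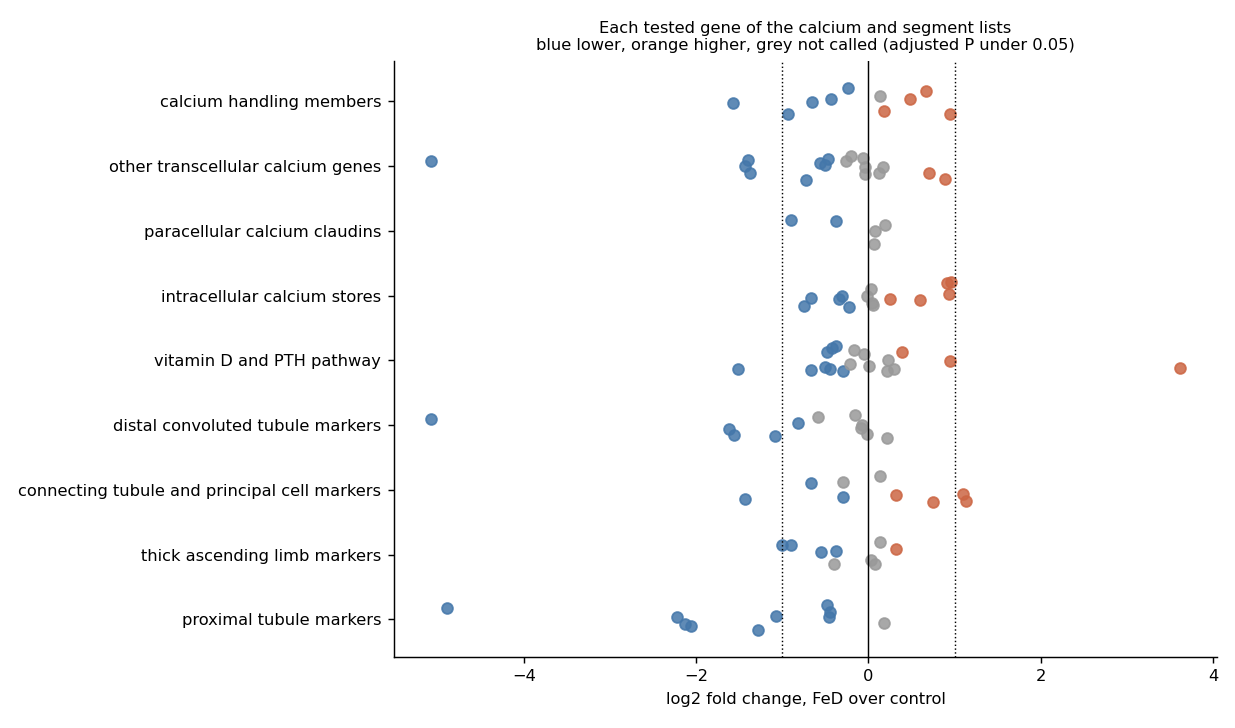
Log2 fold change, FeD over control (horizontal axis), of each tested gene of the calcium, hormone and segment lists (rows); blue is lower, orange higher and grey not called at an edgeR adjusted P under 0.05, and dotted lines mark 2-fold. Pvalb lies farthest left at -5.08 and Cyp27b1 farthest right at 3.62, and 9 of 10 proximal tubule markers lie to the left as called genes.

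Other genes of the transcellular route, 17 of 19 of which passed the low-count filter, gave 2 higher, 8 lower and 7 not called, with a median of -0.26. The shares over all tested genes were 22.4% higher and 23.3% lower. Against a share of 5.69% of all tested genes, 4 of the 17 tested here were lower by at least 2-fold. Besides Pvalb and Klk1 these were klotho (Kl), a co-receptor for FGF23 that also retains Trpv5 at the membrane, and the pump Atp2b2. Kl had 7911, 8141 and 9237 normalized counts in controls and 3125, 3515 and 2935 in FeD (log2 -1.40, edgeR adjusted P = 3.86e-05). Every FeD kidney was below every control for Kl.

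The calmodulin gene Calm3 (-0.56), the kinase Wnk4 (-0.73) and annexin A2 (Anxa2, -0.48), a partner in Trpv5 trafficking, were also lower. The kinase Sgk1 (0.89) and the hormone stanniocalcin-1 (Stc1, 0.70) were higher. Those that did not pass included S100a10 (-0.07), which pairs with Anxa2, and Rab11a (0.12).

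Of the paracellular calcium claudins, 5 of 6 were tested, with 0 higher, 2 lower and 3 not called (median 0.06). Cldn19 (-0.90) and Cldn10 (-0.38) were lower, and Cldn16 (0.08), the partner of Cldn19 in the thick ascending limb, Cldn12 (0.06) and the proximal tubule claudin Cldn2 (0.19, edgeR adjusted P = 0.0896) did not pass.

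Genes of intracellular calcium stores divided evenly, with 5 higher, 5 lower and 4 not called of 14 tested (median 0.03). All tested genes divided nearly evenly too, with 22.4% higher and 23.3% lower. The release channels Itpr3 (0.95) and Ryr3 (0.94), the store sensors Stim1 (0.92) and Stim2 (0.60) and the store pump Atp2a2 (0.25) were higher. The plasma membrane channel subunits that the sensors open, Orai1 (-0.75) and Orai2 (-0.67), were lower, as were the release channels Itpr1 (-0.35) and Itpr2 (-0.23). Stim1 rose from 679, 777 and 676 to 1228, 1397 and 1394 normalized counts (edgeR adjusted P = 0.000155), while Orai1 fell from 443, 496 and 489 to 307, 235 and 303 (adjusted P = 0.00147), and neither pair of groups overlapped.

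In the vitamin D and parathyroid hormone pathway, 18 of 20 genes were tested, with 3 higher, 8 lower and 7 not called (median -0.19), against 22.4% higher and 23.3% lower over all tested genes. The largest change was in Cyp27b1, which makes active vitamin D. It had 257, 267 and 219 normalized counts in controls and 2772, 4709 and 1642 in FeD, 12.3-fold higher and above every control in every FeD kidney (log2 3.62, SE 0.36, edgeR adjusted P = 0.000185). Cyp24a1, which inactivates vitamin D and is induced by it, had 258, 264 and 280 in controls and 403, 684 and 470 in FeD (log2 0.95, SE 0.18, adjusted P = 0.00373). FeD 2, the library with adrenal transcripts, had the highest value of both enzymes.

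Further along the pathway the receptor partner Rxra did not pass (0.29, edgeR adjusted P = 0.0906), and Rxrg, at 2.00 to 25.8 normalized counts, was lower (-1.51). Megalin (Lrp2, -0.48) and cubilin (Cubn, -0.45), which take up filtered vitamin D with its binding protein, were lower. Of the FGF receptors, Fgfr1 was higher (0.39) and Fgfr3 (-0.43) and Fgfr4 (-0.66) were lower. Downstream of Pth1r, the G protein gene Gnas (-0.29) and the scaffold Slc9a3r1 (-0.50) were lower, and downstream of Casr the adaptor subunit Ap2s1 was lower (-0.37), while Gnaq (0.22, adjusted P = 0.0524) and Gna11 (-0.05) did not pass.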

How the data were processed

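RNA of 3 control and 3 FeD kidneys was analysed, grouped by the sample labels. The authors selected polyadenylated RNA, prepared TruSeq libraries and, per the labels, processed the reads with CASAVA 1.8.2, Trimmomatic, TopHat2 2.0.11 (mm9) and HTSeq, and deposited raw read counts per gene symbol, without normalization or pooling. The annotation, counting mode and strand setting are not given in the sources used here, so reads of overlapping or antisense genes cannot be told apart. Every row named a gene.

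From these counts, edgeR 4.0.16 (R 4.3.3) compared FeD with control by the quasi-likelihood test after filterByExpr (15145 of 24422 genes left) and TMM, with Benjamini-Hochberg adjustment over all tested genes. Genes were called at an adjusted P under 0.05, and separately with at least 2-fold change. Totals per library were 13732173 to 20853293 counts, so a gene with 3 counts stood at 2.59 to 3.90 normalized counts. That floor reflects counting error alone, since reads carried no molecular identifiers. Same-group libraries differed by a chi-square of 3.38 to 26.0 per degree of freedom, so no library appeared to be deposited more than once. Ratios of raw counts within a kidney were compared by the exact two-sided permutation test (scipy 1.17.1), and figures were drawn with matplotlib 3.10.9. Positions, overlaps and exon lengths came from the GENCODE annotation of NCBIM37 (mm9), and upstream sequences from RefSeq (GRCm38.p6).

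The 10 genes and all lists were chosen with earlier results of these data known. Every one of the 10 is described. Of the lists described, the called gene with the largest absolute log2 fold change is named, with others of the list as examples, in no order of size. Some genes of the lists enter the counts but are not reported here by name. Alternatives were DESeq2 1.42.0 as test or for size factors, library size alone, no low-count filter or at least 10 counts in every kidney, the replicate number as a block, globin, mitochondrial and sex-linked genes left out, and each kidney left out in turn. The Xist or Y-linked class as a term was added after seeing the data. Other marker lists (intercalated, podocyte, endothelial, immune, red blood cell, adrenal, skeletal muscle, fat, thyroid and parathyroid, sex-linked) were counted in the same fit: higher and lower calls were 2 and 2 of 5, 1 and 0 of 5, 0 and 3 of 4, 3 and 1 of 4, 0 and 0 of 1, 2 and 0 of 2, 0 and 0 of 1, 1 and 3 of 4, 0 and 1 of 1, and 0 and 0 of 5 tested genes. The shares over all tested genes were 22.4% higher and 23.3% lower.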

Additional observations from a re-analysis of the deposited data

How the results depend on the processing

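Over the alternatives named above other than the Xist or Y-linked term, 110 values of the 10 genes kept their direction and their side of the threshold, 19 kept the direction and lost the call, 1 gained a call and 0 reversed. Trpv5, Slc8a1, Casr and Pth1r kept their calls in each. The groups did not overlap for 9 of the 10 genes, so leaving out a kidney gave their directions little room to reverse. With each kidney left out in turn, 3 to 5 genes were called lower, 2 to 5 higher, 1 to 2 lower by 2-fold and 0 to 1 higher by 2-fold. In the same fits 17.0% to 24.8% of all tested genes were lower and 15.6% to 25.6% higher. By 2-fold, 5.69% were lower and 4.34% higher in the fit of all 6 kidneys. With the Xist or Y-linked class as a term, chosen after seeing the data, 2 of the 10 genes were higher (21.5% of all tested genes). Fits without a kidney had fewer samples, and the cause of the change with the class term was not tested. Calls in the 4 calcium and hormone lists, with 17, 5, 14 and 18 tested genes, numbered 33, and 24 to 37 with a kidney left out. Scaling and filters moved the median log2 fold change of all genes by at most 0.02. The replicate numbers gave no sign of pairing (correlation of same-numbered deviations -0.16 to 9.57e-05, and 0 of 6 kidneys correlated best with its own number). Deviations from the mean of 3 kidneys are not independent, so the check cannot settle whether kidneys were paired. With the replicate block 5 of the 10 genes were lower and 3 higher (22.1% and 20.5% of all tested genes). Atp2b1 was lost (edgeR adjusted P = 0.0587), and the calls in the lists numbered 33. A ratio without overlap of the groups could not change direction when a kidney was left out. Of the 14 within-kidney ratios, 12 kept their direction under each alternative run, in a design that cannot pass 0.05. The other 2 were near 0 and turned with a kidney left out: Slc8a1 to the distal convoluted tubule sum (-0.01) ranged from -0.12 to 0.11, and S100g to the connecting tubule and principal cell sum (0.20) from -0.016 to 0.41. Trpv6, at 68 reads in the shallowest case, is the gene most limited by depth.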
